A study of Homo sapiens with 40 samples.

Results

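The ZNF genes are a large family of human genes for C2H2 zinc finger proteins. An exon event was counted as a member where its Ensembl identifier maps to a symbol of ZNF followed by digits, with an optional letter suffix. The rule used the gene name and no measured value. It found 312 of the 16378 exon events in the 5 tables, in 172 ZNF genes. RNA-seq covered 299 of these events in 161 genes and RASL-seq covered 41 in 34 genes. By symbol, 4 of the genes are pseudogenes (ZNF271P, ZNF37BP, ZNF542P and ZNF767P).

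C2H2 zinc fingers are short folds held by a zinc ion that read DNA, and ZNF proteins usually carry a tandem array of them. Many ZNF proteins also have a KRAB domain, which recruits TRIM28 (KAP1) and, through it, the H3K9 methyltransferase SETDB1 and HP1 proteins, so that bound sites, often transposable elements, are silenced. In a typical KRAB gene the finger array is encoded by one long last exon, while the KRAB A and B boxes are encoded by short upstream exons, so that skipping one of them can give a protein with fingers and no complete KRAB domain. Such genes have multiplied by duplication and lie in clusters, above all on chromosome 19.

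Splicing was compared in HEK293 Flp-in T-REx cells, a human embryonic kidney line, that express a transgene for an α-amanitin-resistant (Amr) large subunit of RNA polymerase II, Rpb1, with the substitution R749H, H1106Y or E1126G or without one (WT). All groups, WT included, carried the resistant transgene, induced with doxycycline for 12 to 16 h, and then had α-amanitin for 42 h, which blocks the endogenous polymerase. RNA-seq had 2 libraries each of R749H, E1126G and WT, and RASL-seq, which counts pairs of ligated probes at chosen exon junctions, had 3 libraries each of R749H, H1106Y, E1126G and WT. R749H and H1106Y are known as slow and E1126G as a fast form of the polymerase, and the study asked how elongation rate bears on splicing. Each value is pooled over the libraries of a genotype, with no value per library and an unknown read depth, so no error of a level can be given. Inclusion is the share of inclusion reads among inclusion and exclusion reads, computed from the authors' deposited ratios. Inclusion reads can come from more junctions than exclusion reads, and no correction was made for that. An event is called where the deposited p-value, adjusted by the Benjamini-Hochberg method over every event of its table, is below 0.05, and "rose", "fell" and "changed" are used of called events. Within an assay the mutants were compared with the same WT libraries, so likeness between mutants is not independent. Levels of individual exons are those of pooled transcripts, and no protein was measured. Coordinates are in GRCh37.

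The median ZNF exon was less fully included in WT cells than the median exon of all events. In the R749H RNA-seq table the median WT inclusion was 79.3% over the 269 ZNF events, against 90.5% over all 14358 events. Inclusion in WT cells lay between 5% and 95% for 75.1% of ZNF events, against 51.7% of all events. Of the ZNF events 37.9% lay on chromosome 19, against 4.42% of all events. Over all tables, 71 of the 172 genes were on chromosome 19 and 14 on chromosome 7. The share of exons whose length is a multiple of 3, and so can keep the reading frame when skipped, was 41.6% of ZNF events and 43.5% of all events. The distance between the exons flanking the event had a median of 6087 nt in ZNF genes and 5124 nt over all events.

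Exon lengths in the family were uneven. Of 301 distinct ZNF exons, 24 were exactly 127 nt long (7.97%), against 74 of 15102 exons of other genes (0.49%), and 13 of the 24 were on chromosome 19. Another 11 were 96 nt long (3.65%), against 169 exons of other genes (1.12%). As background, the KRAB A box is commonly encoded by an exon of the first length and the B box by one of the second. The tables do not annotate domains, and both lengths were singled out after the values had been seen, so a given exon was not identified as a KRAB exon.

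**Figure D1:**
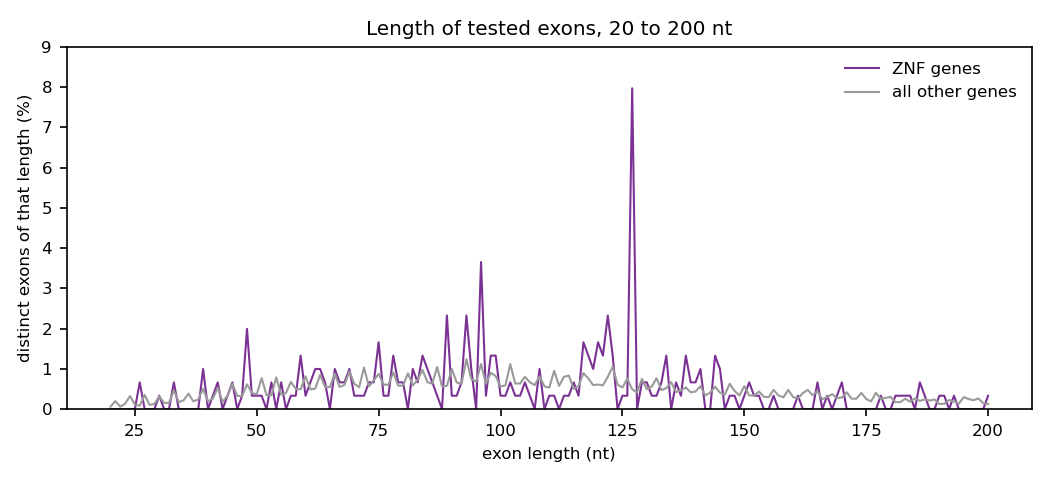
Share of distinct tested exons (vertical axis, %) at each length in nt (horizontal axis, 20 to 200 nt) for ZNF genes (purple) and all other genes (grey). The ZNF line has its highest peak at 127 nt (7.97% against 0.49%) and the next at 96 nt (3.65% against 1.12%).

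In R749H cells ZNF exons changed in both directions, and at some the majority of reads switched between exclusion and inclusion. On RNA-seq 40 of 269 ZNF events in 35 genes changed, 18 with higher and 22 with lower inclusion than in WT cells. That is 14.9% of ZNF events, against 15.1% of all events (7.07% higher and 8.04% lower), so the share of changed ZNF events lay near the background and says nothing particular about the family. This comparison does not account for WT inclusion. Between 10% and 90% in WT cells 19.1% of ZNF events were called, against 22.6% of all events. The shares were 8.79% against 10.8% above 90%, and 11.5% against 13.0% below 10%. These differences were not tested. No gene had calls in both directions. The median log2 change in the authors' deposited table was -0.11 for ZNF events and -0.00479 for all events. In E1126G cells fewer ZNF events were called, 12 of 269 in 11 genes, 3 higher and 9 lower. That is 4.46%, against 6.48% of all events (2.2% higher and 4.27% lower), and the median log2 change in the authors' deposited table was -0.21 for ZNF events and -0.08 for all events. An inclusion change of at least 20 percentage points was seen in 53 ZNF events in R749H cells, of which 27 were called, and in 33 in E1126G cells, of which 8 were called. Over all events these numbers were 906 called of 1466 in R749H cells and 353 called of 903 in E1126G cells.

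In R749H and E1126G cells RASL-seq called a larger share of events than RNA-seq, in the family as in the whole tables. In R749H cells 14 of 38 ZNF events changed, 8 higher and 6 lower, which is 36.8% against 44.1% of all events (24% higher and 20.1% lower). In H1106Y cells 20 of 37 changed, 9 higher and 11 lower, or 54.1% against 61.9% of all events (23.7% higher and 38.2% lower). In E1126G cells 18 of 40 changed, 4 higher and 14 lower, or 45% against 47.5% of all events (13.9% higher and 33.6% lower). The majority of lower calls in E1126G cells was thus also that of the whole table. The median log2 changes of ZNF events in the authors' deposited tables were 0.01 for R749H, -0.38 for H1106Y and -0.43 for E1126G, against 0.05, -0.33 and -0.37 for all events.

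**Figure D2:**
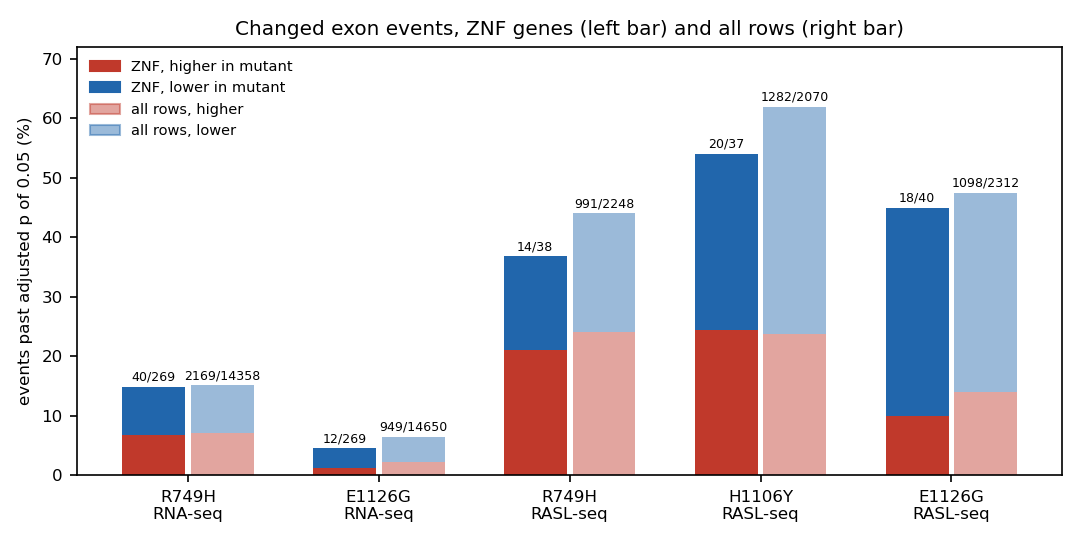
Share of exon events past an adjusted p of 0.05 (vertical axis, %) in each mutant and assay, for ZNF genes (solid, left bars) and all events (pale, right bars), split into higher (red) and lower (blue) in the mutant; labels give called over tested events. ZNF shares run from 4.46% to 54.1%, each close to or below the share of all events beside it.

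On RNA-seq in R749H cells, ZNF exons near full inclusion in WT cells had lower calls and those near full skipping had higher ones. Of the 91 ZNF events above 90% in WT cells in the R749H RNA-seq table, 8 were called and all 8 fell, while over all events of that kind 233 rose and 553 fell. Of the 26 ZNF events below 10%, 3 were called and all 3 rose, while 233 rose and 55 fell over all such events. Between these limits 15 ZNF events rose and 14 fell. RASL-seq was mixed in this respect, in the family as over all events. Above 90% in WT cells, 2 of 12 ZNF events rose and 2 fell in R749H cells. In H1106Y cells 2 of 13 rose and 4 fell, and in E1126G cells 3 of 13 rose and 4 fell. Over all such events 171 rose and 118 fell in R749H cells, 89 rose and 319 fell in H1106Y cells, and 90 rose and 251 fell in E1126G cells. Below 10% in WT cells, 3 of 8 ZNF events rose and 1 fell in R749H cells, while over all such events 112 rose and 87 fell. In H1106Y cells 2 of 5 rose and 1 fell, while over all such events 141 rose and 80 fell. In E1126G cells 0 of 8 rose and 3 fell below 10%, while over all such events 75 rose and 125 fell. In R749H cells on RNA-seq, calls were made in 18 of the 112 ZNF events with an exon length that is a multiple of 3. They were made in 22 of the other 157, and in 15.1% of all events. In E1126G cells on RNA-seq they were made in 6 of 111 and in 6 of the other 158, against 6.48% of all events. On chromosome 19, 4 of 102 ZNF events rose and 10 fell in R749H cells on RNA-seq. On the other chromosomes 14 of 167 rose and 12 fell, and over all events of that comparison 7.07% rose and 8.04% fell. In E1126G cells on RNA-seq, 1 of 94 rose and 3 fell on chromosome 19. On the other chromosomes 2 of 175 rose and 6 fell, and over all events 2.2% rose and 4.27% fell. The difference between these groups of genes was not tested.

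Among KRAB zinc finger genes, several of the largest gains in R749H cells were of exons that were mostly skipped in WT cells. A 45-nt exon of ZNF573 (chromosome 19, 38263578 to 38263622) reached 69.0% in R749H cells, against 15.0% in WT cells (adjusted p = 0.00903). A 328-nt exon of ZNF680 reached 74.5% in R749H cells, against 25% in WT cells, and a 55-nt exon of ZNF300 reached 64.3% in R749H cells, against 30.6% in WT cells. In these 3 exons inclusion reads outnumbered exclusion reads in R749H cells. Without a correction for the number of junctions, this does not show a majority of transcripts. A 96-nt exon of ZNF74, a gene in the 22q11 region deleted in DiGeorge syndrome, reached 43.5% in R749H cells, against 7.41% in WT cells (adjusted p = 0.00168). A 118-nt exon of ZNF212 reached 31.2% in R749H cells, against 6.82% in WT cells. Both remained minority forms in R749H cells. A 294-nt exon of ZNF37A reached 94.3% in R749H cells, against 57.4% in WT cells. A 121-nt exon of its pseudogene relative ZNF37BP reached 50% in R749H cells, against 16.4% in WT cells. Reads of these near-identical loci may have been assigned to either, so both values are uncertain. In E1126G cells the exons of ZNF680, ZNF37BP and ZNF212 were at 72%, 45.7% and 10%, and none was called. Differences between R749H and E1126G cells at these exons were not tested.

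Of the ZNF rises called on RNA-seq, that in ZNF23 had the largest log2 change. Its 122-nt exon (chromosome 16, 71484497 to 71484618) was included at 60.4% in R749H cells, against 7.89% in WT cells, a log2 change of 4.15 in the authors' deposited table (adjusted p = 5.77e-05). A 98-nt exon of ZNF707 reached 91.9% in R749H cells, against 42.9% in WT cells, and a 251-nt exon of ZNF140 reached 98.0% in R749H cells, against 78.4% in WT cells. For the same exons in E1126G cells, inclusion was 18.2% in ZNF23, 26.9% in ZNF707 and 95% in ZNF140, none of which was called. Whether R749H and E1126G cells differ at these exons was not tested.

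Losses in R749H cells included exons of KRAB genes at which most reads of WT cells were inclusion reads. A 127-nt exon of ZNF138, in a zinc finger cluster on chromosome 7 (64275296 to 64275422), was included at 21.7% in R749H cells, against 74.6% in WT cells, a log2 change of -3.41 in the authors' deposited table (adjusted p = 5.09e-06). A 121-nt exon of ZNF678 (chromosome 1, 227838657 to 227838777) fell to 31.2% in R749H cells, against 85.0% in WT cells, and a 33-nt exon of ZNF615 to 31.6% in R749H cells, against 77.8% in WT cells. Further 127-nt exons fell in ZNF786, to 35.3% in R749H cells against 77.5% in WT cells, and in ZNF92, to 57.4% in R749H cells against 87.7% in WT cells. The ZNF92 exon is listed a second time with other flanking exons, at 89.0% in R749H cells, against 92.3% in WT cells, and that event was not called. In these genes, ZNF92 excepted, exclusion reads outnumbered inclusion reads in R749H cells. Of 22 ZNF events with a 127-nt exon tested in R749H cells on RNA-seq 3 were called, against 14.9% of all 269 ZNF events. Of the 22, 10 had a positive and 12 a negative log2 change in the authors' deposited table, and their median was -0.16. In E1126G cells none of 20 such events was called on RNA-seq, and 1 had an unadjusted p under 0.05. Of the 20, 5 had a positive and 15 a negative log2 change in the authors' deposited table, with a median of -0.44, against -0.21 over all 269 ZNF events. Over the 158 ZNF events whose exon length is not a multiple of 3, 63 were positive and 95 negative. The exons of ZNF480 and ZNF92 are each listed more than once among the 20 and share reads, and the split was not tested.

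ZNF664 had the lowest adjusted p-values of the family on RNA-seq. A pair of overlapping ZNF664 exons on chromosome 12 that end at 124472685, of 96 and 93 nt, fell to 43.1% and 38.1% in R749H cells, against 82.0% and 79.1% in WT cells (adjusted p = 5.78e-09 and 5.91e-08). The pair differs by 3 nt at the left end in genome coordinates and shares reads, so it is one result. A 48-nt exon of ZNF875 (chromosome 19, 37813087 to 37813134) fell to 57.7% in R749H cells, against 91.1% in WT cells (adjusted p = 2.84e-06). Similar overlapping pairs fell in ZNF607, a 96-nt and a 99-nt exon at 82.6% and 77.8% in R749H cells, against 97.6% and 96.5% in WT cells, and in the pseudogene ZNF542P, both at 10.4% in R749H cells, against 46.7% and 41.7% in WT cells. A 61-nt exon of ZNF222 fell to 4.40% in R749H cells, against 27.5% in WT cells, and a 92-nt exon of ZNF426 to 73.6% in R749H cells, against 95.9% in WT cells.

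Members with better known roles outside KRAB silencing also changed in R749H cells. ZNF207 (BuGZ), which binds BUB3 and helps load it at kinetochores, had a 93-nt exon included at 96.3% in R749H cells, against 85.9% in WT cells (adjusted p = 3.14e-07). ZNF711, a gene of X-linked intellectual disability, had a 138-nt exon at 63.6% in R749H cells, against 39.7% in WT cells (adjusted p = 2.37e-07). ZNF384, a transcription factor known from leukaemia fusion genes, gained a 93-nt exon, 42.4% in R749H cells against 18.4% in WT cells, and a 48-nt exon, 90.8% in R749H cells against 74.5% in WT cells. The lengths of these 4 exons are multiples of 3. ZNF217, an oncogene amplified in breast cancer, lost part of a 133-nt exon, 70.5% in R749H cells against 93.9% in WT cells (adjusted p = 0.000325). ZNF326, a subunit of the DBIRD complex that links polymerase II elongation with splicing, had overlapping 406-nt and 139-nt exons that fell to 86.6% and 81.5% in R749H cells, against 97.0% and 95.2% in WT cells. ZNF277 had an 89-nt exon at 90.4% in R749H cells, against 97.2% in WT cells, and ZNF76, a relative of the promoter factor ZNF143, a 165-nt exon at 94.3% in R749H cells, against 80.6% in WT cells. The exons that fell, in ZNF217, ZNF326 and ZNF277, were above 90% in WT cells, and those that rose were below it.

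**Figure D3:**
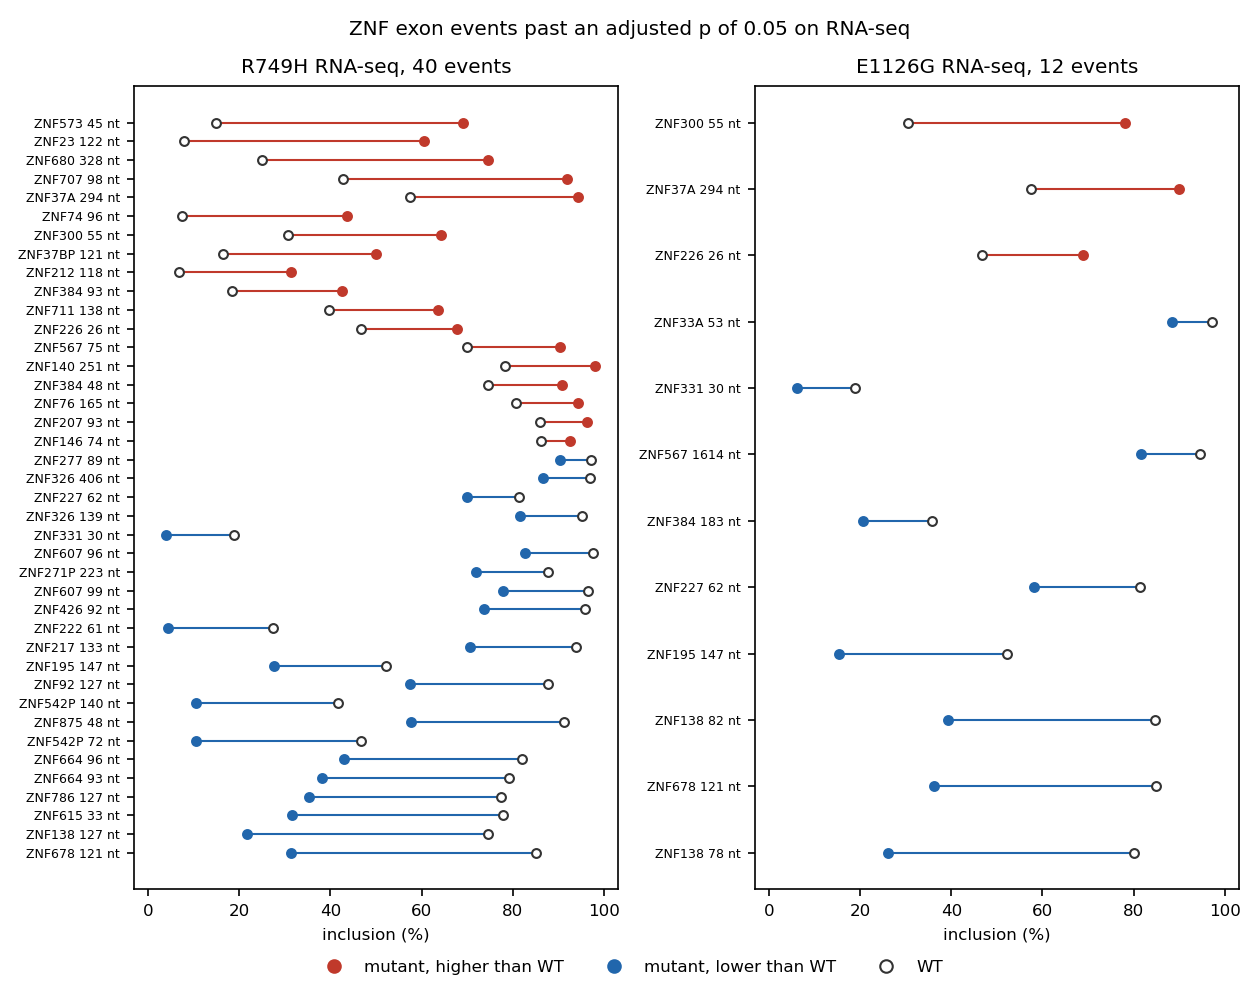
Inclusion (horizontal axis, %) in mutant cells (filled; red where higher and blue where lower than WT) and WT cells (open) for each ZNF exon event past an adjusted p of 0.05 on RNA-seq, one event a line, R749H left (40 events) and E1126G right (12 events). In R749H cells the ZNF573 exon moved farthest up (69.0% in R749H cells, 15.0% in WT cells) and the ZNF678 exon farthest down (31.2% in R749H cells, 85.0% in WT cells); values are pooled, so no error bars are drawn.

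In E1126G cells 9 of the 12 ZNF events called on RNA-seq fell, and on that assay the ZNF138 exons called were not the one that fell in R749H cells. Overlapping ZNF138 exons of 82 and 78 nt, which end at 64276031 on chromosome 7, were at 39.3% and 26.1% in E1126G cells, against 84.6% and 80.0% in WT cells (adjusted p = 0.00437 and 0.00399). In R749H cells they were at 84.2% and 82.4% and were not called. The 127-nt exon upstream was at 67.9% in E1126G cells, against 74.6% in WT cells, and was not called on RNA-seq, although RASL-seq called it lower. ZNF227 had the lowest adjusted p in E1126G cells, with a 62-nt exon at 58.2%, against 81.4% in WT cells (adjusted p = 6.96e-06). A 1614-nt exon of ZNF567 fell to 81.6% in E1126G cells, against 94.6% in WT cells, while a 75-nt exon of ZNF567 rose to 90.3% in R749H cells, against 69.8% in WT cells (adjusted p = 4.43e-05). A 53-nt exon of ZNF33A, which has the close copy ZNF33B, was at 88.5% in E1126G cells, against 97.3% in WT cells, and its reads are uncertain for that reason.

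Some ZNF exons were called in both R749H and E1126G cells on RNA-seq. Both were compared with the same WT libraries, so their values are set side by side and the overlap is not a result. The 55-nt exon of ZNF300 was at 64.3% in R749H cells and 78.0% in E1126G cells, against 30.6% in WT cells, and that of ZNF37A at 94.3% in R749H cells and 90% in E1126G cells, against 57.4% in WT cells. A 26-nt exon of ZNF226, shorter than the usual internal exon, was at 67.9% in R749H cells and 68.8% in E1126G cells, against 46.6% in WT cells. The 143-nt intron that directly follows this exon was mostly retained. Its retention was 82.7% in R749H cells and 88.5% in E1126G cells, against 87.9% in WT cells, and was not called. The 3 genes encode KRAB zinc finger proteins. The 121-nt exon of ZNF678 was at 31.2% in R749H cells and 36.1% in E1126G cells, against 85.0% in WT cells. The 62-nt exon of ZNF227 was at 70.0% in R749H cells and 58.2% in E1126G cells, against 81.4% in WT cells. A 147-nt exon of ZNF195 was at 27.7% in R749H cells and 15.5% in E1126G cells, against 52.1% in WT cells. A 30-nt exon of ZNF331, an imprinted gene of chromosome 19, was at 3.93% in R749H cells and 6.12% in E1126G cells, against 18.9% in WT cells.

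H1106Y was measured by RASL-seq alone. In H1106Y cells 7 of 37 ZNF events shifted by at least 20 percentage points, as did 407 of 2070 over all events, so the ZNF share lay near the background. In R749H cells 2 of 38 ZNF events did, and 170 of 2248 over all events, and in E1126G cells 3 of 40, and 180 of 2312 over all events. ZNF274, a KRAB protein that brings SETDB1 to the 3′ ends of other zinc finger genes, had a 96-nt exon (chromosome 19, 58698314 to 58698409) at 65.1% in H1106Y cells, against 97.6% in WT cells, a log2 change of -4.46 in the authors' deposited table (adjusted p = 1.91e-50). The same exon was at 92.5% in R749H cells, also called lower, and at 96.4% in E1126G cells, not called. An 83-nt exon of ZNF789 fell to 7.30% in H1106Y cells, against 44.6% in WT cells (adjusted p = 8.64e-30). A 144-nt exon of ZNF202, a SCAN and KRAB repressor of lipid metabolism genes, fell to 40.0% in H1106Y cells, against 83.9% in WT cells (adjusted p = 0.0276). It was at 52.6% in E1126G cells, not called. A 127-nt exon of ZNF107 fell to 74.4% in H1106Y cells, against 93.5% in WT cells. The exons that rose included an 869-nt exon of ZNF687, a gene mutated in Paget disease of bone, at 43.4% in H1106Y cells, against 12.1% in WT cells (adjusted p = 6.16e-21). The 93-nt exon of ZNF384 was at 22.8% in H1106Y cells, against 7.78% in WT cells, and the 165-nt exon of ZNF76 at 37.5% in H1106Y cells, against 16.7% in WT cells, both called higher, as they were in R749H cells on RNA-seq.

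ZNF138 had neighbouring exons that moved in opposite directions on RASL-seq. Its 89-nt exon (chromosome 7, 64274437 to 64274525) was at 80.8% in H1106Y cells and 63.6% in E1126G cells, both called, and at 59.0% in R749H cells, not called, against 50.1% in WT cells. The 127-nt exon next to it was at 21.8% in R749H cells, 31.9% in H1106Y cells and 22.9% in E1126G cells, all called lower, against 45.4% in WT cells. By coordinates, the junction that skips the 89-nt exon is also one that includes the 127-nt exon. The ratios of these exons can therefore share reads in opposite roles, so their opposite moves are not independent. ZNF138 was the gene with calls in both directions in the H1106Y and E1126G tables. Of its 5 events, 4 were called in at least 1 comparison. By contrast, ZNF195 had 10 events of which 1 was called, and ZNF410, with 7, and ZNF706, with 6, had none called, and at an unadjusted p under 0.05 there was 1 event in ZNF410 and 0 in ZNF706.

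In R749H cells the RASL-seq changes of at least 20 percentage points were those of the 127-nt exon of ZNF138 and a 96-nt exon of ZNF527. The 96-nt exon of ZNF527 fell to 9.23% in R749H cells and 12.3% in E1126G cells, against 31.1% in WT cells. The ZNF687 exon was at 19.9% in R749H cells, against 12.1% in WT cells, and a 41-nt exon of ZNF521, a factor of progenitor cells, at 88.6% in R749H cells, against 81.3% in WT cells. Changes at exons near full inclusion or full skipping were called on small shifts. A 1225-nt exon of ZNF638, a nuclear protein that silences unintegrated retroviral DNA, was at 98.8% in R749H cells and 98.2% in E1126G cells, against 99.4% in WT cells (adjusted p = 0.000429 for R749H and 9.41e-19 for E1126G). A 151-nt exon of ZNF518A was at 0.529% in R749H cells and 0.352% in E1126G cells, against 1.87% in WT cells. A 165-nt exon of ZNF875 was at 1.70% in R749H cells, against 0.782% in WT cells, and a 75-nt exon of ZNF346 (JAZ), a double-stranded RNA-binding protein, at 1.69% in R749H cells and 2.27% in H1106Y cells, against 1.04% in WT cells. These calls moved inclusion by less than 2 percentage points, with log2 changes in the authors' deposited tables between -2.43 and 1.15.

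In E1126G cells on RASL-seq the loss with the lowest adjusted p was of a 94-nt exon of ZNF507, at 11.2% in E1126G cells, against 32.7% in WT cells (adjusted p = 1.71e-56). A 170-nt exon of ZNF221 was at 12.3% in H1106Y cells and 16.8% in E1126G cells, against 23.3% in WT cells. A 105-nt exon of ZNF655 fell to 2.26% in E1126G cells, against 8.48% in WT cells, and a 145-nt exon of ZNF131, a BTB zinc finger protein, was at 91.4% in H1106Y cells and 94.5% in E1126G cells, against 95.8% in WT cells. The 406-nt exon of ZNF326 was at 95.6% in E1126G cells, against 98.5% in WT cells, and was called lower. The 4 exons that rose were the 89-nt exon of ZNF138 and exons of ZNF678, ZNF207 and ZNF451. The ZNF207 exon was at 92.4% in E1126G cells, against 90.1% in WT cells. ZNF678's 93-nt exon was at 95.6% in R749H cells, 94.2% in H1106Y cells and 95.4% in E1126G cells, against 90.1% in WT cells, each called. On RNA-seq in E1126G cells the log2 changes in the authors' deposited table were -0.86 for this exon, 0.49 for ZNF655 and -0.12 for ZNF207. These were opposite in sign to RASL-seq, while the exons of ZNF507, ZNF131, ZNF326 and ZNF451 had the same sign on both assays. None of these exons was called on RNA-seq in E1126G cells.

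Over the 5 comparisons, 64 of the 312 ZNF events, in 52 genes, were called at least once. No share over all events was computed for calls in any or in several comparisons, so these counts say nothing particular about the family. Mutants within an assay share WT libraries, so calls of one exon in several mutants are not independent. The events with calls in 4 comparisons were the 127-nt exon of ZNF138, the 30-nt exon of ZNF331, the 147-nt exon of ZNF195 and a 223-nt exon of ZNF271P. The ZNF331 exon was at 3.85% in R749H cells, 1.68% in H1106Y cells and 1.72% in E1126G cells on RASL-seq, against 6.63% in WT cells, and the R749H value was the one not called. The ZNF271P exon was at 26.0% in R749H cells, 14.8% in H1106Y cells and 31.6% in E1126G cells on RASL-seq, against 43.4% in WT cells, all called lower. On RNA-seq it was at 72% in R749H cells, against 87.7% in WT cells. ZNF271P is a pseudogene with close relatives, and its reads are uncertain. A 74-nt exon of ZNF146, a protein made almost wholly of fingers, rose in 3 tables. It was at 92.5% in R749H cells on RNA-seq, against 86.2% in WT cells, and on RASL-seq at 91.5% in R749H cells and 92.5% in H1106Y cells, against 83.3% in WT cells.

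Opposite calls occurred in 3 of the 28 ZNF events called in 2 or more comparisons, and such events were not counted over all genes. The ZNF195 exon was at 43.8% in H1106Y cells, called higher, and 18% in E1126G cells, called lower, against 32.3% in WT cells on RASL-seq. A 144-nt exon of ZNF451, a SUMO ligase, was at 98.1% in H1106Y cells, called lower, and 99.7% in E1126G cells, called higher, against 99.4% in WT cells. A 102-nt exon of ZNF808 was at 99.0% in H1106Y cells, called higher, and 96.4% in E1126G cells, called lower, against 97.5% in WT cells. H1106Y was thus above WT in 2 of the 3 and below it in the other. The difference between the mutants was not tested, and ZNF195 was also called lower in R749H cells on RNA-seq. On RASL-seq the ZNF195 exon was at 36.1% in R749H cells, against 32.3% in WT cells, and was not called.

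**Figure D4:**
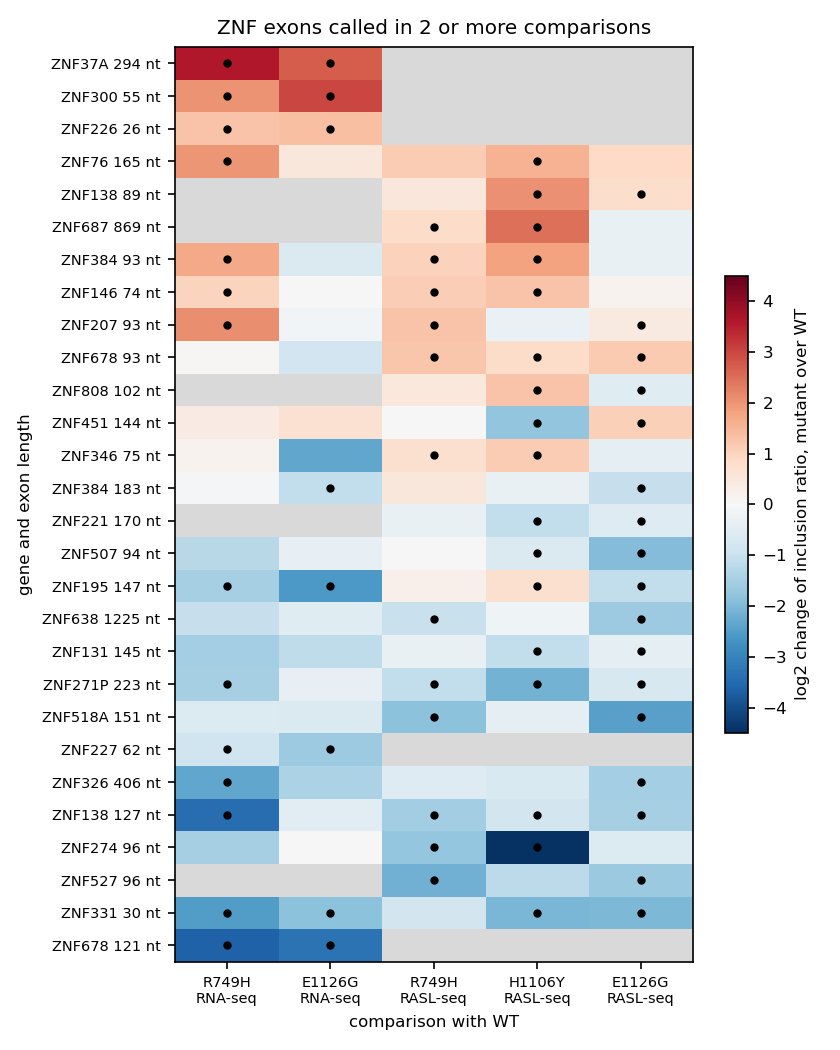
Log2 change of the inclusion ratio, mutant over WT (colour scale, red higher and blue lower), for the ZNF exons called in 2 or more of the 5 comparisons (columns), ordered by mean change; dots mark calls and grey cells were not measured. The ZNF274 exon in H1106Y cells is the deepest blue (-4.46), and the exons of ZNF195, ZNF451 and ZNF808 carry dots on cells of both colours.

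R749H and E1126G were each measured by both assays in separate libraries, which allowed a look at the same exons on different chemistry. In R749H cells 27 ZNF events were in both assays, of which 10 were called on RNA-seq and 11 on RASL-seq. The 5 called in both had the same direction, higher in ZNF146, ZNF207 and ZNF384 and lower in ZNF138 and ZNF271P. ZNF207's 93-nt exon, for instance, was at 95.7% in R749H cells, against 90.1% in WT cells, on RASL-seq, and ZNF384's 93-nt exon at 14.8% in R749H cells, against 7.78% in WT cells. In E1126G cells 28 events were in both assays, 3 called on RNA-seq and 14 on RASL-seq. The 3 called on RNA-seq were also called on RASL-seq and all were lower, in ZNF195, ZNF331 and the 183-nt exon of ZNF384. The ZNF384 exon was at 20.6% in E1126G cells, against 35.8% in WT cells, on RNA-seq, and at 9.26% in E1126G cells, against 17.2% in WT cells, on RASL-seq. The signs of the log2 changes in the authors' deposited tables matched in 21 events for R749H and in 21 for E1126G. Across the 27 events of R749H, which are not independent replicates, Pearson's r of the log2 changes in the authors' deposited tables was 0.66 and Spearman's rho 0.65, and across the 28 of E1126G they were 0.33 and 0.40.

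**Figure D5:**
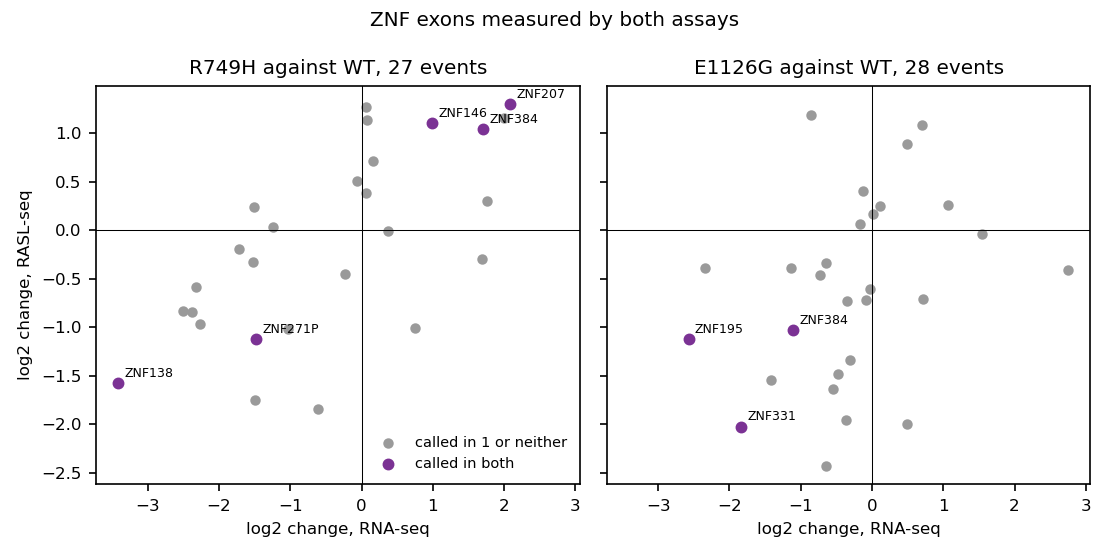
Log2 change of the inclusion ratio, mutant over WT, on RNA-seq (horizontal axis) and RASL-seq (vertical axis) for each ZNF exon measured by both assays, R749H left (27 events) and E1126G right (28 events); purple points are called in both. The 5 purple points for R749H and the 3 for E1126G have the same sign on both axes.

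WT inclusion differed between the assays at some exons. For 6 of the 27 events of R749H, WT inclusion was at least 20 percentage points higher on RNA-seq than on RASL-seq, and for none was it that much lower. They included the 165-nt exon of ZNF76, at 80.6% in WT cells on RNA-seq and 16.7% in WT cells on RASL-seq, and the 94-nt exon of ZNF507, at 89.5% in WT cells on RNA-seq and 32.7% in WT cells on RASL-seq. The median absolute difference over the R749H events was 4.66 percentage points. Levels were therefore compared within an assay.

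Retained introns were few at ZNF genes. The intron tables name no gene, so an intron was taken as a ZNF intron where it lay inside the span of a ZNF gene's exon events on the same strand. In R749H cells 2 of 11 such introns changed, against 18.9% of all introns (11.9% higher and 6.99% lower). A 95-nt intron of ZNF131 was retained at 76.2% in R749H cells, against 50% in WT cells (adjusted p = 0.0307), and an 89-nt intron of ZNF692 at 48.1% in R749H cells, against 69.7% in WT cells (adjusted p = 0.0186). The ZNF131 intron shares its right end in genome coordinates with a 102-nt intron at 47.7% in R749H cells, against 32.1% in WT cells, which was not called (adjusted p = 0.0547). In E1126G cells 1 of 12 changed, against 9.18% of all introns (4.51% higher and 4.67% lower). It was a 363-nt intron of ZNF711, retained at 67.5% in E1126G cells, against 78.9% in WT cells (adjusted p = 0.0195).

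Exons of the proteins that KRAB zinc fingers recruit, and of other C2H2 genes, were counted in the same way. Among exon events of the KRAB partners, 8 of 57 changed in R749H cells on RNA-seq, 7 higher and 1 lower, which is 14.0% against 15.1% of all events. In E1126G cells 8 of 61 changed, 3 higher and 5 lower, which is 13.1% against 6.48% of all events, a difference that was not tested. A 125-nt exon of MPHOSPH8, a subunit of the HUSH silencing complex, was at 81.5% in R749H cells and 37.2% in E1126G cells, both called, against 9.48% in WT cells. A 53-nt exon of the histone deacetylase gene HDAC1 reached 30.3% in R749H cells, against 2.17% in WT cells. A 115-nt exon of SETDB1 fell to 15.2% in E1126G cells, against 58.3% in WT cells. Of the other C2H2 genes, 9 of 47 events changed in R749H cells, 5 higher and 4 lower, and 1 of 48 in E1126G cells, which is 19.1% against 15.1% of all events in R749H cells and 2.08% against 6.48% in E1126G cells. A 131-nt exon of ZBTB21 reached 90.3% in R749H cells, against 15.4% in WT cells, and a 111-nt exon of ZFX fell to 7.69% in R749H cells, against 75% in WT cells. On RASL-seq the KRAB partners had 6 of 18 events called in R749H cells, 7 of 15 in H1106Y cells and 8 of 18 in E1126G cells, and the other C2H2 genes 5 of 19, 8 of 14 and 5 of 20. Each of these shares, from 25% to 57.1%, was below that of all events, 44.1% in R749H cells, 61.9% in H1106Y cells and 47.5% in E1126G cells.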

How the data were processed

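The authors deposited 7 tables, each setting a mutant against WT, 5 of exons and 2 of retained introns, with no value per library. Tables named by a code were assigned to R749H, whose samples list them in their labels. The first deposited value is a log of the WT inclusion to exclusion ratio and was read as a natural log from the values: with it 62.9% to 94.4% of ratios were ratios of whole numbers with a denominator up to 300 (relative tolerance 1e-09), against at most 0.396% with base 2. The second deposited value is the log2 change of that ratio, mutant over WT. The third is the authors' deposited p-value, unadjusted. Not given in the sources used here are its test and whether the spread between libraries entered that test. RNA-seq reads of 100 bp from biological replicates were mapped with Tophat 1.4.1 per the labels' protocols, and the submitters' processing notes name Bowtie 0.12.7, edgeR 3.7.17 and GRCh37 without saying which table each made. The labels do not say whether RASL-seq libraries came from separate cultures. GRO-seq is not analysed here.

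Inclusion was 100 times the ratio over 1 plus the ratio. Adjustment was by Benjamini-Hochberg over every event of a table, with a threshold of 0.05. Symbols were looked up for 6848 of 6976 gene identifiers, and 4 hyphenated ZNF symbols were left out. Genes named were, per comparison, up to 10 called events with the largest rise and 10 with the largest fall in percentage points, events called in 3 or more tables or in opposite directions, and events in all 5 tables called in any; from the 2 other lists, up to 3 events per RNA-seq comparison. Other called ZNF events and the 96-nt and 127-nt exons were named after their values were seen. The members and lists were chosen with earlier results of these data known. Work used Python 3.11.15, pandas 2.3.3, numpy 2.4.6, scipy 1.17.1 and matplotlib 3.10.9. Alternatives were other thresholds and adjustments, filters on WT inclusion and on the size of the change, and overlapping exons counted once.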

Additional observations from a re-analysis of the deposited data

How the results depend on the processing

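The counts of called ZNF events depended on the threshold. With an adjusted p under 0.01, R749H RNA-seq had 22 calls in place of 40 and E1126G RNA-seq 6 in place of 12, the other C2H2 genes had 5 in place of 9 and 0 in place of 1, and the ZNF introns had 0 in place of 2 (R749H) and 0 in place of 1 (E1126G). Benjamini-Yekutieli adjustment gave 15 for R749H RNA-seq and 5 for E1126G RNA-seq. Requiring a change of at least 10 percentage points left 3 of the 14 RASL-seq calls in R749H cells, 12 of 20 in H1106Y cells and 6 of 18 in E1126G cells, and a WT inclusion of 5% to 95% gave 9 calls in place of 14 in R749H cells. Overlapping exons counted once, an alternative chosen after seeing the data, gave 36 calls (18 higher, 18 lower) in R749H and 11 in E1126G on RNA-seq. Of 104 single calls, 35 were lost at a threshold of 0.01, 45 under Benjamini-Yekutieli and 34 with the minimum of 10 percentage points; none of these settings can turn a sign, and a looser threshold cannot lose a call. No paired analysis was possible because the tables hold no value per library, and for the same reason no library could be left out. Depth is unknown, so what it limits cannot be given.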
